A study of Mus musculus with 4 samples.

Results

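The type 2 cytokine T cells described here are T cells of HER2+ H605 mammary tumours that held messenger RNA of the cytokine genes Il4, Il5 or Il13 or of the IL-33 receptor gene Il1rl1. They were chosen barcode by barcode from unique molecular identifiers (UMIs, the tags that count single captured RNA molecules). A barcode counted as a cell from 500 mouse UMIs and 250 detected genes upward, with no more than 20% of its UMIs mitochondrial. A cell was a member with at least 1 UMI of Cd3d, Cd3e or Cd3g, which encode chains of the T cell receptor complex, and at least 1 UMI of Il4, Il5, Il13 or Il1rl1. A member also had no UMI of Foxp3, Trdc, Cd8a or Cd8b1, fewer than 2 UMIs of the proliferation genes Mki67 and Top2a, and fewer than 3 UMIs of the phagocyte gene Lyz2. The rule found 691 members among 14555 cells (4.75%). The 3054 cells that passed every gate other than the type 2 UMI are called gated T cells, so 2363 of them were other gated T cells with no type 2 UMI.

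The study transplanted H605 tumour cells, a HER2+ mouse mammary tumour line, into the mammary pad of 6- to 8-week-old FVB/NJ mice and profiled the tumours by single-cell RNA sequencing at day 14. Hosts were wild type (WT, 2 tumours) or IL1α-/- (2 tumours), and the hosts alone, never the H605 cells, carried the knockout. The labels give no separate treatment, and the tumours were collected as 2 pairs on separate days. All 4 tumours were dissociated with collagenase and hyaluronidase and enriched for live cells, so every group shares that handling, and a tumour is the replicate throughout.

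Type 2 T cells are the helper subset that makes interleukins 4, 5 and 13, the cytokines that act on B cells, eosinophils, epithelium and macrophages in allergy and in defence against worms. The transcription factor GATA3 directs the subset, and the receptor encoded by Il1rl1 (ST2) lets it respond to IL-33, an alarmin of the IL-1 family that damaged tissue releases. Il1rl1 is also carried by many tissue Foxp3 regulatory T cells, so its RNA alone does not mark a cytokine producer.

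The type 2 genes of the rule lie in 2 places of the genome. In the GENCODE vM21 annotation of GRCm38, Il4 lies at chr11:53602982-53618669 on the minus strand, Il13 at chr11:53631324-53634702 on the minus strand and Il5 at chr11:53720794-53725106 on the plus strand. Il1rl1 lies at chr1:40429570-40465415 on the plus strand. Ccl1, a chemokine gene whose product binds CCR8 and which was given as a marker but is not in the rule, lies at chr11:82176657-82305690 on the minus strand. The 250 bases before the RefSeq start of each gene (GRCm38.p6; for Il4 and Il1rl1 the more upstream of 2 starts) are shown because GATA3 binds the GATA motif. Capitals mark AGATAA and its variant AGATAG, or TGATAA and its variant TGATAG, on either strand, each sequence reading 5′ to 3′ on the gene's own strand. The windows are chr11:53634703-53634952 (Il13), chr11:53720544-53720793 (Il5), chr11:53618666-53618915 (Il4), chr1:40429320-40429569 (Il1rl1) and chr11:82179813-82180062 (Ccl1).
Il13: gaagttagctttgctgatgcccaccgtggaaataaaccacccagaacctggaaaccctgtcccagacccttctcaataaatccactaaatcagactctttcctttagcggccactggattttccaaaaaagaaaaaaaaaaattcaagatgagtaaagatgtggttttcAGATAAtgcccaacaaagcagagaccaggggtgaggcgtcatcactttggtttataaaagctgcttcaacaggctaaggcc
Il5: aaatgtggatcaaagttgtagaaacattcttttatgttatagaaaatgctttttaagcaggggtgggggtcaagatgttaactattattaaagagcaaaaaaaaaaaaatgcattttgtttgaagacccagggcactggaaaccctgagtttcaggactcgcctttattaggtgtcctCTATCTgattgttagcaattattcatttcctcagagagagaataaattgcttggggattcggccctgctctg
Il4: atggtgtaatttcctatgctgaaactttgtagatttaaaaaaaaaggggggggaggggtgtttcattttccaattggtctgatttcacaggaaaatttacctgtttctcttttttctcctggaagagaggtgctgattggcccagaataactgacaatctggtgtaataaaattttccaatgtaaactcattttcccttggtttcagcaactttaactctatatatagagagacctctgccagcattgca
Il1rl1: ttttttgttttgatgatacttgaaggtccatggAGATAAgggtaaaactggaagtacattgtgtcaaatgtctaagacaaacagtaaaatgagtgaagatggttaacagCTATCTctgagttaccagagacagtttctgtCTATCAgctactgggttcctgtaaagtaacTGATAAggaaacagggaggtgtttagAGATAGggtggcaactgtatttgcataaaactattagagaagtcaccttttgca
Ccl1: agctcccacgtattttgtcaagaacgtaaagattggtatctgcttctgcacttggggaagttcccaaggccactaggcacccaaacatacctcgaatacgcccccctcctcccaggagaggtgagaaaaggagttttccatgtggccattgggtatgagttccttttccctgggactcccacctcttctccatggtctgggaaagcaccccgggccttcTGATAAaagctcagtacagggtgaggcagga
The Il1rl1 window held 5 matches, the Il13, Il5 and Ccl1 windows 1 each, and this Il4 window none. At the other RefSeq start of Il4 the window held 1 match, as did the one at the other start of Il1rl1. Among 32851 RefSeq promoter windows of this length, 26.5% held at least 1 match and 1.3% held at least 3. These matches are letters in a window and were not tested as binding sites.

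The libraries differed in depth. They held 6705368 to 29001333 UMIs, and the median cell had 3143 and 4209.5 UMIs in the WT tumours but 1361 and 2902 in the IL1α-/- tumours. No pair of libraries shared more than 6 cell barcodes. Il1a, deleted in the host, had 67 and 112 UMIs over all cells of the WT tumours and 1 and 0 in the IL1α-/- tumours. Almost none of it came from members, which held 0, 1, 0 and 0 Il1a UMIs in WT 1, WT 2, IL1α-/- 1 and IL1α-/- 2. All series of 4 values below follow that order.

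Most members held alpha-beta T cell receptor RNA, which the rule did not use. A T cell receptor alpha or beta constant chain (Trac, Trbc1 or Trbc2) was detected in 664 members (96.1%), Cd4 in 381 (55.1%) and Gata3 in 452 (65.4%), while a gamma chain UMI was seen in 36 (5.21%). Levels are given as CPM, the unit that scales a gene's summed UMIs to the total mouse UMIs of a population in 1 tumour. The genes of natural killer cells summed to 43.4, 20.6, 84.5 and 40.7 CPM in members, against 559.7, 568, 419 and 315 in other gated T cells. The genes of group 2 innate lymphoid cells, Gata3, Areg and Rora among them, ran the other way. They summed to 1351, 1140, 1991 and 1711 CPM in members, against 296, 302, 360 and 555 in other gated T cells. The genes of phagocytes summed to 21.7, 60.7, 18.8 and 21.3 CPM in members, against 3277 to 7771 in phagocytes. Of 12 mast cell and basophil genes, 4 had no UMI in any member, Fcer1a among them, and the list reached 43.4, 46.3, 141 and 109 CPM, largely through Hdc. Fibroblast genes were uneven, at 179, 4090.1, 141 and 4193 CPM. They sat in few cells, since 2, 2, 1 and 4 members with at least 10 such UMIs held 125 of 157, 3926 of 3974, 13 of 15 and 2154 of 2162 of them. A doublet caller (Scrublet) marked 15 members.

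Members differed widely in how much type 2 RNA they held, which the rule fixed and which is described without a test. Il1rl1 was detected in 589 members (85.2%), Il13 in 279 (40.4%), Il4 in 150 (21.7%) and Il5 in 104 (15.1%). Il5 mostly accompanied Il13, with 79 of the 104 Il5 cells (76.0%) also holding Il13. Il4 overlapped less, with 88 of its 150 cells (58.7%) holding Il13, and 28 members held all 3 cytokines. Just inside the threshold, 188 members had a single type 2 UMI and 86 had 2, whereas 417 had at least 3 and 158 at least 10. Just outside, 178 cells failed only the Foxp3 gate, 107 only the Cd3 gate, 68 only the Cd8 gate, 61 only the proliferation gate, 16 only the Trdc gate and 8 only the Lyz2 gate. On the Cd3 side, 49 members had a summed Cd3 count of 1.

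A small number of cells made most of the cytokine RNA. The 69 members with the most UMIs of a gene held 75.0% of the members' Il13 UMIs, 88.3% of their Il5, 88.7% of their Il4 and 98.7% of their Ccl1, but 38.7% of their Il1rl1. A single member reached 100 Il13 UMIs, another 123 Il4 UMIs. Members held 2188 of the 3024 Il13 UMIs in all cells (72.4%), 715 of 854 for Il4 (83.7%) and 298 of 422 for Il5 (70.6%). Most of the remaining Il13, 587 UMIs, was in cycling T cells that the proliferation gate set aside. For Il1rl1 the members' part was 2677 of 4384 UMIs (61.1%), with 477 in Foxp3 T cells.

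Summed over members, Il13 stood at 762, 1069, 1239.6 and 679 CPM in members. Il4 stood at 183, 384, 300.5 and 291, and Il5 at 67.4, 144, 404 and 109. Il1rl1 stood at 976, 824, 1963 and 1577. The cytokine levels of WT and IL1α-/- tumours overlapped, whereas both IL1α-/- values of Il1rl1 lay above both WT values. These levels follow from the gate and carry no test.

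Background RNA can place a UMI in a cell that does not express a gene. Phagocytes held at least 1 type 2 UMI in 4.77%, 2.02%, 1.06% and 3.14% of cells at median depths of 4388, 4928.5, 1797.5 and 4039 UMIs. A cytokine UMI was seen in 0.265%, 0.168%, 1.06% and 0% of phagocytes. Whether their Il1rl1 UMIs were background or their own expression was not tested. Gated T cells held one in 28.7%, 28.5%, 10.2% and 21.4% at lower median depths, 3040.5, 4077.5, 1227 and 2450.5 for members and 2331.5, 3301, 1087.5 and 2239 for the others. Foxp3 T cells held one in 43.4%, 46.1%, 16.7% and 40.3%, nearly all of it Il1rl1, since a cytokine UMI was seen in 0%, 0.658%, 0% and 0% of them.

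**Figure D1:**
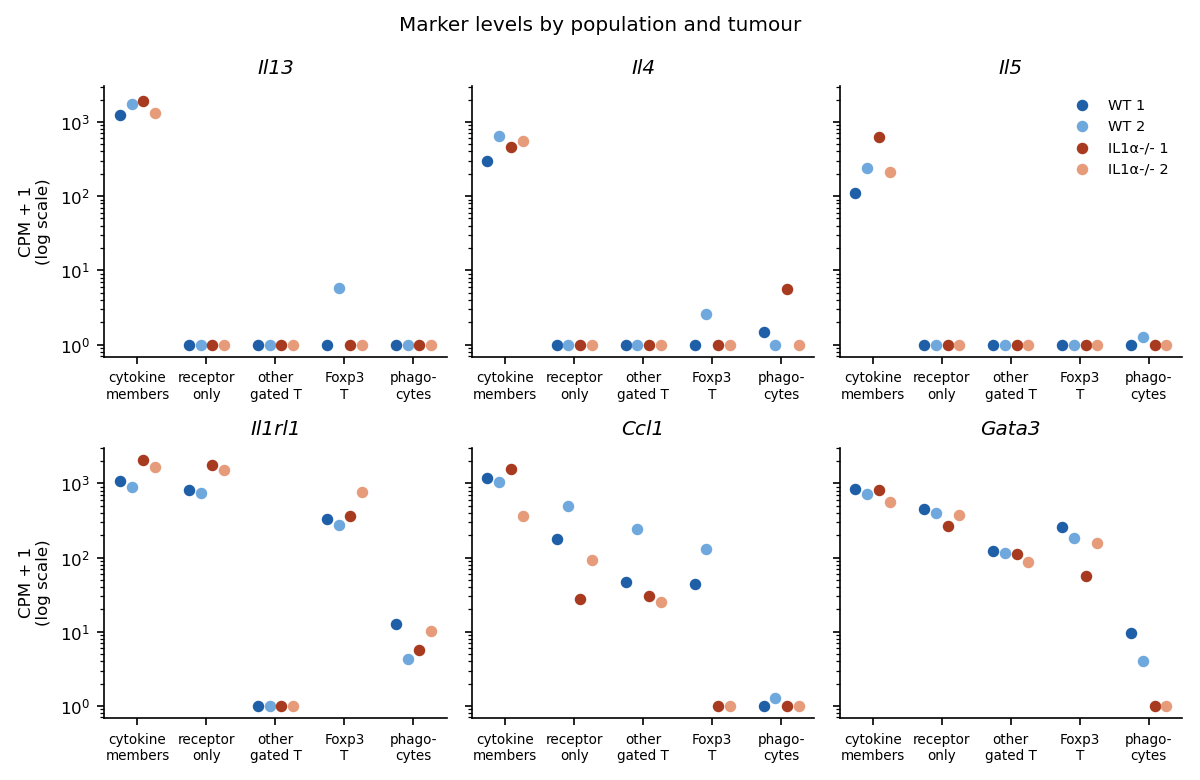
CPM plus 1 on a log axis for Il13, Il4, Il5, Il1rl1, Ccl1 and Gata3 in members with a cytokine UMI, members with Il1rl1 alone, other gated T cells, Foxp3 T cells and phagocytes, 1 point per tumour. The first 4 genes define the populations and show the gate at work, while Ccl1 and Gata3 were not in the rule and are highest in the cytokine members.

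The share of type 2 cytokine T cells among gated T cells was the first comparison of hosts. In the WT tumours it was 28.7% and 28.5% (248 of 864 and 202 of 709 cells), with 95% exact binomial intervals of 25.7% to 31.8% and 25.2% to 32.0%. In the IL1α-/- tumours it was 10.2% and 21.4% (69 of 677 and 172 of 804 cells), with intervals of 8.02% to 12.7% and 18.6% to 24.4%. Both IL1α-/- values lay below both WT values, with differences of -18.5 points in pair 1 and -7.10 points in pair 2. WT tumours averaged 28.6% ± 0.151 (SD, n = 2), whereas IL1α-/- tumours averaged 15.8% ± 7.92 (SD, n = 2). They differed by -12.8 points (exact permutation test, two-sided p = 0.333), and no smaller p is possible with 2 tumours a group. Among all cells the share was 6.20%, 5.04%, 2.15% and 5.16%, and the groups overlapped (-1.97 points, exact permutation p = 0.667). The binomial intervals cover counting error only.

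Depth and the mixture of T cells moved with this share. The IL1α-/- libraries were shallower, and a shallow cell is less likely to show a type 2 UMI. When every cell was thinned to 1000 UMIs the share of gated T cells was 19.5%, 18.4%, 8.98% and 13.8%, leaving out 35, 33, 273 and 46 gated cells that were shallower. The gates were applied again to the thinned counts, so a cell that lost its Cd8, Trdc or Foxp3 UMIs could enter. Gated T cells numbered 926, 881, 490 and 934 after thinning, against 864, 709, 677 and 804 before. How many cells entered this way was not counted. Members with a cytokine UMI made up 15.3%, 15.2%, 6.20% and 10.1% of gated T cells unthinned, and 8.32%, 8.63%, 6.12% and 5.46% after thinning, with the IL1α-/- values still below the WT values. Foxp3 T cells, which share Il1rl1 with members, were 17.4%, 17.7%, 3.42% and 7.16% of gated and Foxp3 T cells together. CD8 T cells, which the gate leaves out where a Cd8 UMI is seen, numbered 137, 218, 796 and 646 before thinning. Within other gated T cells, part of the denominator, the genes of the type 1 programme summed to 3009, 3263, 8837 and 5529 CPM, both IL1α-/- values above both WT values. The part of these shifts in the member share was not tested.

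**Figure D2:**
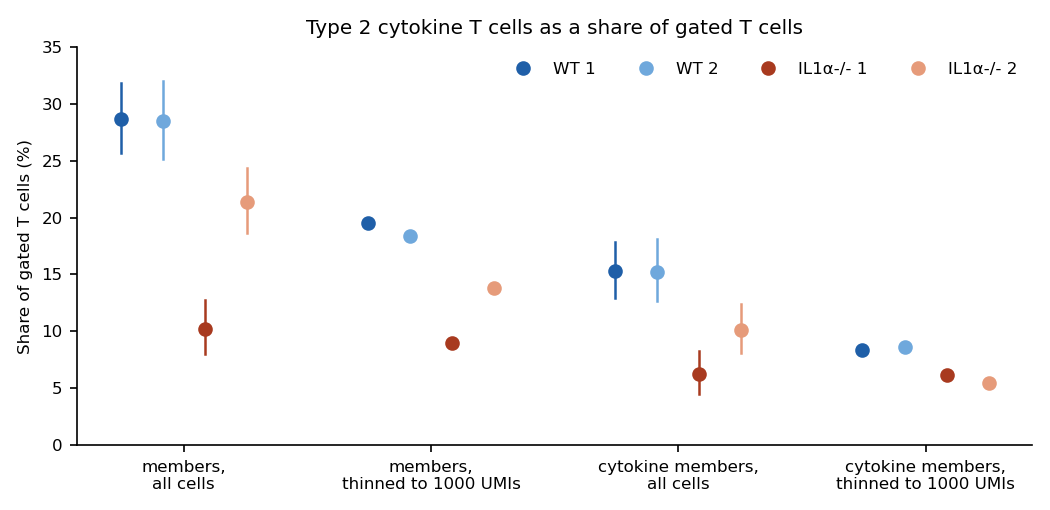
Share of gated T cells (percent) that were members, and that were members with a cytokine UMI, in all cells and after thinning to 1000 UMIs, 1 point per tumour, with 95% exact binomial intervals on the unthinned shares. Both IL1α-/- tumours lie below both WT tumours in all 4 groups of points, from 10.2% and 21.4% against 28.7% and 28.5% to 6.12% and 5.46% against 8.32% and 8.63%.

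Members and other gated T cells of the same tumours were then compared over the genes outside the rule. The members carried more RNA of a wide type 2 programme and less of the natural killer, type 1 and naive programmes. With edgeR's quasi-likelihood test on counts summed per tumour, with the tumour as a block, 982 of 7303 genes (13.4%) had an adjusted p under 0.05, 549 higher in members (7.52%) and 433 lower (5.93%). Of the 982, 900 had the same direction in all 4 tumours, as had 32.6% of all tested genes. Members were somewhat deeper than the others, and 826 genes were called when the comparison cells were matched on UMIs. Calls numbered 575 without WT 1 and 524 without WT 2.

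Of 30 listed genes of the type 2 programme, 22 were abundant enough to test, 19 were higher in members and none lower, with a median log2 difference of 1.97 against -0.05 over all tested genes. Gata3 itself was at 681, 589.7, 619.8 and 471 CPM in members and 122, 113, 112 and 86.0 in the others. Every member value exceeded every other value, a log2 difference of 2.46 (SE 0.16, edgeR adjusted p = 3.61e-08). Ccl1 was at 779, 818, 1033 and 231 in members and 46.0, 241, 29.0 and 24.4 in the others. WT 2 had the highest value among other gated T cells, just above the lowest member value, and the log2 difference was 3.4 (SE 0.37, edgeR adjusted p = 7.5e-06). It was seen in 92 members and in 47 other gated T cells, so its level rests on few cells. The list was drawn up with earlier results of these data known and is not independent evidence of its direction.

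Transcription factors and regulators of tissue type 2 cells were among the genes higher in members. Pparg, a lipid-sensing nuclear receptor, was at 96.0, 116, 103 and 118 CPM against 2.14, 2.69, 5.05 and 5.49 (log2 difference 4.92). Bhlhe40, a transcription factor that helper T cells need for cytokine output, was at 890.3, 491, 1352 and 1137 against 221, 146, 444 and 466 (1.68). Both separated members from the others in every tumour. Epas1, the hypoxia factor HIF-2α, was at 77.7, 73.1, 159.7 and 118 against 10.2, 7.64, 12.6 and 22.6 (2.94). Maf, Rora, Batf and Irf4 were higher by 0.84 to 1.5 on the log2 scale. Stat6, which carries the IL-4 signal, and the receptor subunit Il4ra did not pass the test, with log2 differences of 0.23 and -0.26 (edgeR adjusted p = 0.57 and 0.448).

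Secreted products other than the gating cytokines followed. Areg, the epidermal growth factor family ligand amphiregulin, was at 189.7, 236, 1118 and 803 CPM in members and 15.5, 31.4, 12.6 and 15.9 in the others (log2 difference 4.39, SE 0.54). The member values were at least several times those of the others in each tumour, and highest in the IL1α-/- tumours. Calca, which encodes the neuropeptide CGRP, was at 119, 98.8, 263 and 142 against 2.14, 1.35, 15.1 and 17.1 (4.31). Tnfsf11, the RANK ligand gene, was at 272, 137, 150.3 and 171 against 30.0, 28.3, 42.9 and 57.4 (2.27). Il10 was at 54.9, 70.0, 65.7 and 479 against 11.8, 4.94, 37.9 and 12.2 (3.44), and the IL1α-/- 2 value came from 29 cells. Il3, Il9 and Ptgdr2 had no UMI in any member.

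Receptors and enzymes known from allergic T cells also differed. Cysltr1 and Ltb4r1 encode receptors for leukotrienes. Cysltr1 stood at 72.0, 124, 113 and 129.9 CPM in members and 4.28, 8.53, 6.31 and 14 in the others (log2 difference 3.72). Ltb4r1 stood at 206, 306, 197 and 188 against 9.10, 12.6, 5.05 and 10.4 (4.52). Cyp11a1, the enzyme that starts steroid synthesis from cholesterol, stood at 59.4, 122, 113 and 73.7 against 0.535, 1.35, 1.26 and 0 (6.65). It had the largest fold of the genes given in this comparison and was found in 8.87%, 22.3%, 7.25% and 8.72% of members. Akr1c18 stood at 176, 27.8, 37.6 and 64.0 against 3.75, 2.69, 12.6 and 0.610 (4.34). Ffar2, a receptor for short-chain fatty acids, was higher by 3.93 on the log2 scale and Cd200r1, an inhibitory receptor, by 2.38. The edgeR adjusted p of these 6 genes was 8.67e-06 or smaller.

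**Figure D3:**
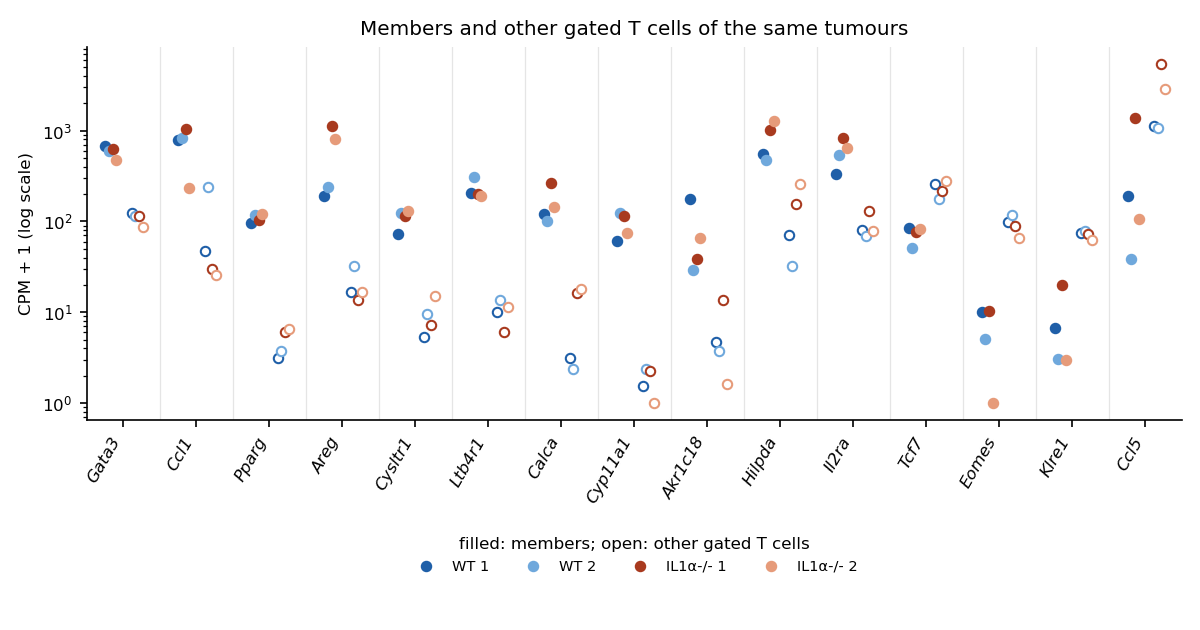
CPM plus 1 on a log axis for 15 genes in members (filled points) and other gated T cells (open points), 1 point per tumour. From Gata3 to Il2ra the filled points lie above the open points of the same tumour, and from Tcf7 to Ccl5 below them.

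Genes of activation, hypoxia and regulation were also higher in members. In the activation list 12 of 16 tested genes were higher and none lower, with Cd40lg, the helper ligand for CD40, at 179, 112, 441 and 229 CPM against 47.6, 31.4, 73.2 and 70.8 (log2 difference 1.99). In the glycolysis and hypoxia list 11 of 13 were higher and none lower, led by the lipid-droplet gene Hilpda at 547, 469, 1024 and 1280.1 against 70.6, 31.0, 154 and 254 (2.94). Hk2, the first enzyme of glycolysis, was at 73.1, 98.8, 376 and 227 against 26.2, 19.8, 50.5 and 93.4 (1.91). In all 3 of these genes each tumour's members exceeded its other T cells. In the regulatory list 9 of 13 were higher and none lower, with the IL-2 receptor gene Il2ra at 335, 540.3, 826 and 644 against 79.7, 67.8, 129 and 77.5 (2.73). Ikzf2 (Helios), the transcription factor of that list most typical of regulatory cells, stood at 318, 257, 385 and 54.3 against 339, 192, 259.9 and 192 (log2 difference -0.05, edgeR adjusted p = 0.948). Without WT 2, 8 of 15 activation genes were called.

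The gated T cells include cells without a Cd4 UMI. Cd4 was at 327, 263, 324 and 329.7 CPM in members and 111, 158, 99.7 and 195 in the others. Among cells with a Cd4 UMI on both sides, a comparison added after the data were seen, 323 of 4679 genes (6.9%) were called, 196 higher (4.19%) and 127 lower (2.71%), and 266 of them were also called in the full comparison. There 13 of 19 type 2 programme genes were higher, 4 of 12 glycolysis and hypoxia genes, 4 of 11 regulatory genes and 5 of 15 activation genes, each with none lower. The median log2 difference of the glycolysis and hypoxia list was 0.73 there against 0.77 over all cells, that of the activation list 0.59 against 0.97, that of the regulatory list 0.30 against 1.11 and that of the type 2 programme 1.2 against 1.97. Over all tested genes it was -0.03 among Cd4 cells. Fewer cells and fewer genes entered this comparison, and their part in the lower counts was not tested. Gata3 kept a log2 difference of 2.10 and Ccl1 one of 2.25. Ctla4 and Icos, both inhibitory or costimulatory relatives of CD28, had 0.30 and -0.08 there (edgeR adjusted p = 0.578 and 0.919), against 1.29 and 0.91 over all cells. Icos also lost its call over all cells without WT 2 (log2 difference 0.71, edgeR adjusted p = 0.0606).

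On the lower side, members had less RNA of cytotoxic and resting T cells. All 5 natural killer genes were lower, with Eomes at 9.14, 4.12, 9.39 and 0 CPM against 97.9, 117, 87.1 and 64.7 (log2 difference -4.18) and Klre1 at 5.71, 2.06, 18.8 and 1.94 against 74.4, 77.7, 71.9 and 61.0 (-4.10). In the type 1 list 11 of 16 were lower and 1 higher, Cxcr6, a chemokine receptor of tissue T cells. Ccl5, a chemokine of cytotoxic cells, was at 191, 37.1, 1362 and 105 against 1113, 1055, 5419 and 2896 (-3.44), lower in members in each tumour, although IL1α-/- 1 members exceeded the WT others. Tbx21, the type 1 master regulator, was at 12.6, 18.5, 47.0 and 38.8 against 42.8, 46.7, 71.9 and 73.8 (-1.20). In the naive and central memory list 8 of 9 were lower, with Tcf7 at 83.4, 50.4, 75.1 and 81.5 against 254, 175, 213 and 281 (-1.68). Among Cd4 cells alone 7 of 9 naive genes and 5 of 14 type 1 genes were lower, and the median log2 difference of the type 1 list was -0.78 there against -0.83 over all cells. Tbx21 had -0.98 there (edgeR adjusted p = 0.0875). No natural killer gene passed the filter on low counts there, so that list was not tested among Cd4 cells. Without WT 1, 5 naive genes were lower, all others tested missing the threshold. Ifng did not pass in the full comparison (-0.59, edgeR adjusted p = 0.263).

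Foxp3 T cells were compared next, since many of them also held Il1rl1. Against the 420 Foxp3 T cells, 642 of 7303 genes (8.79%) were called, 382 higher in members (5.23%) and 260 lower (3.56%), and 294 without WT 2. Of all tested genes 25.3% had the same direction in all 4 tumours. In the type 2 programme list 11 of 22 tested genes were higher and 1, Maf, was lower. Gata3 was at 259, 181, 56.2 and 154 CPM in Foxp3 T cells, below the member values in each tumour (log2 difference 1.79, SE 0.18, edgeR adjusted p = 8.84e-06). Ccl1 was at 43.2, 131, 0 and 0 (4.0) and Cd40lg at 15.5, 7.82, 56.2 and 7.71 (3.86). Pparg, Cysltr1 and Hilpda were higher in members by 3.07, 3.53 and 2.28.

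Areg and Il10 did not separate members from Foxp3 T cells. Areg was at 154, 161, 56.2 and 1326 CPM in Foxp3 T cells, with a log2 difference of 0.55 (SE 0.48, edgeR adjusted p = 0.617). Il10 was at 96.7, 67.3, 112 and 61.7, with a log2 difference of 0.61 (SE 0.51, edgeR adjusted p = 0.593). Neither difference passed the test, and with the 24 and 62 Foxp3 T cells of the IL1α-/- tumours its precision is low. The regulatory list ran the other way, with 10 of 13 genes lower in members and none higher, 5 of 13 without WT 1. Ikzf2 was at 1985, 1316, 1855 and 2066 in Foxp3 T cells (-2.82), Itgb8, which activates TGF-β, at 138, 75.1, 140.5 and 131 (-3.24), and the folate receptor relative Izumo1r at 511, 601, 590.1 and 632 (-2.40). Il2ra and Ctla4 were lower in members by smaller amounts, -0.63 and -1.05. Foxp3 was set to 0 by the gate and carries no weight here.

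Within the members, 363 cells held a cytokine UMI and 328 held Il1rl1 alone (47.5%), a split made after the data were seen. The cytokine members held more RNA of type 2 programme genes, and the cells with Il1rl1 alone held more of Ikzf2 and of resting T cell genes. In edgeR's test with the tumour as a block 227 of 3979 genes (5.7%) were called, 122 higher in cytokine members (3.07%) and 105 lower (2.64%), and only 47 without WT 1, 106 without WT 2 and 126 without IL1α-/- 1. The cytokine members were also deeper, with median UMIs of 3614, 4880, 1273.5 and 2818 against 2574, 3173.5, 1071 and 2374.

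Ikzf2 separated the 2 groups in every tumour. It stood at 18.8, 22.1, 43.3 and 3.73 CPM in cytokine members and 784, 616, 1019.8 and 109 in receptor-only members, a log2 difference of -4.92 (SE 0.23, edgeR adjusted p = 4.05e-10). An Ikzf2 UMI was seen in 5.30%, 7.41%, 4.76% and 1.23% of cytokine members and in 52.6%, 41.5%, 29.6% and 12.1% of receptor-only members. Other gated T cells held one in 29.9%, 27.0%, 17.1% and 18.4%, and Foxp3 T cells in 90.1%, 84.9%, 70.8% and 74.2%. The cytokine members were thus the lowest of the 4 populations in every tumour, and the IL1α-/- 2 receptor-only members the lowest of theirs.

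Type 2 genes ran the opposite way to Ikzf2. In the type 2 programme 11 of 21 tested genes were higher in cytokine members and none lower, and 3 of 21 without WT 1. Gata3 was at 833, 719, 809 and 563 CPM in cytokine members and 445, 392, 268 and 372 in receptor-only members (log2 difference 0.93, edgeR adjusted p = 0.00166, and 0.0662 without WT 1). Ccl1 was at 1164, 1034, 1575 and 358 against 179, 489, 26.8 and 93.0 (2.17, edgeR adjusted p = 0.00034, and 0.0512 without WT 1). In both genes the cytokine members were higher in each tumour. Cyp11a1 was at 84.4, 179, 173 and 127 against 20.5, 36.4, 0 and 16.2 (2.47), and the fractalkine receptor Cx3cr1 at 99.4, 138, 144 and 74.6 against 5.85, 23.4, 0 and 4.04 (3.24). Pparg, Bhlhe40 and Calca were higher by 1.33, 0.89 and 1.94. Receptor-only members still held Gata3 above the other gated T cells in each tumour, at 268 to 445 against 86.0 to 122.

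Receptor-only members held more RNA of resting T cells. In the naive and central memory list 4 of 7 tested genes were lower in cytokine members and 2 of 9 without IL1α-/- 1. The lymph-node homing receptor Ccr7 was at 9.38, 1.70, 14.4 and 7.46 CPM in cytokine members and 64.4, 59.8, 53.7 and 64.7 in receptor-only members (log2 difference -3.20). Izumo1r was at 28.1, 27.3, 72.2 and 44.7 against 196, 252, 242 and 97.1 (-2.45). Both genes separated the groups without overlap. Il2ra, Ctla4 and Icos had log2 differences of 0.55, -0.32 and -0.18 that did not pass (edgeR adjusted p = 0.293, 0.415 and 0.539). Fibroblast genes were also unevenly spread between the groups, with Col1a1 at 13.1, 17, 28.9 and 421 in cytokine members and 49.7, 1593, 0 and 1306 in receptor-only members, and their part in these differences was not tested.

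**Figure D4:**
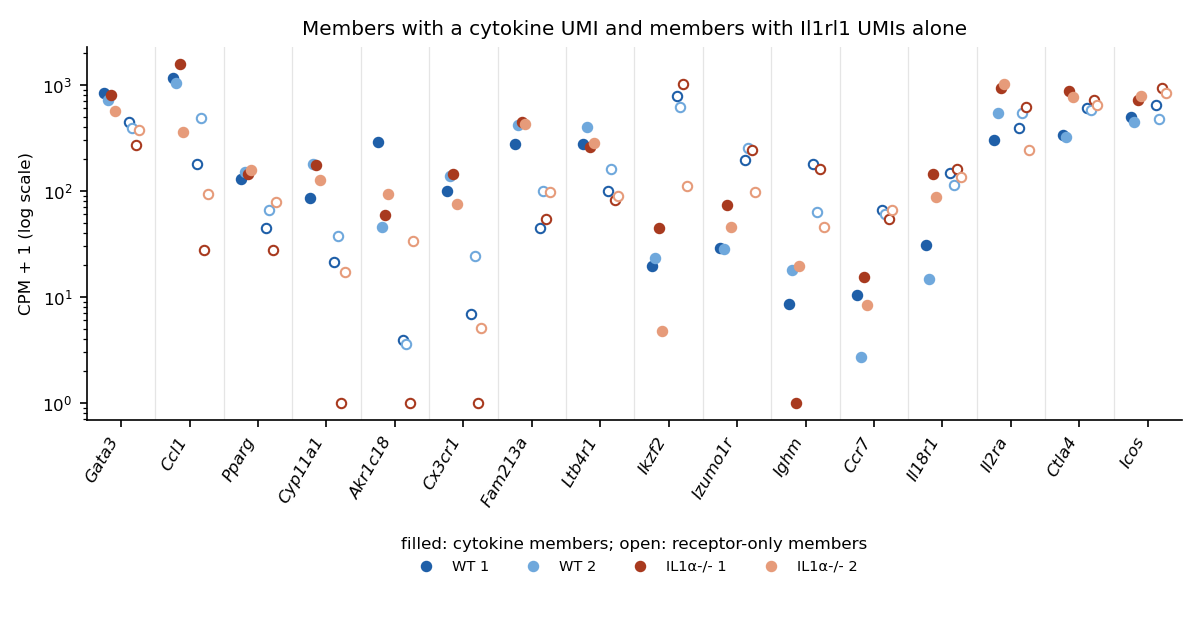
CPM plus 1 on a log axis for 16 genes in cytokine members (filled points) and receptor-only members (open points), 1 point per tumour. Ikzf2, Izumo1r and Ccr7 are lower and Gata3, Ccl1, Cyp11a1 and Cx3cr1 higher in the filled points of each tumour, while Il2ra, Ctla4 and Icos overlap.

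Members of IL1α-/- hosts were next compared with members of WT hosts. With edgeR's quasi-likelihood test 59 of 6685 genes (0.883%) passed an adjusted p under 0.05, 54 higher in the IL1α-/- tumours (0.808%) and 5 lower (0.0748%). The 2 groups of 2 tumours did not overlap in 46.4% of all tested genes, so a gap between the groups alone says little. With the replicate number as a block, since the tumours were collected in pairs, 399 genes were called. Calls numbered 204 without WT 1 and 189 without IL1α-/- 1. IL1α-/- 1 contributed 69 cells and 106484 UMIs, against 515567 to 971619 in the other tumours.

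Of 24 tested type 2 programme genes 3 were higher in IL1α-/- members, Areg, Batf and Irf4, and none lower. The median log2 difference of the list was 0.51, against -0.02 over all tested genes. By edgeR 12 of the 24 had an unadjusted p under 0.05, as had 911 of all 6685 tested genes. Other lists moved further in this comparison. The type 1 list had a median of 0.99 with none of 14 tested genes called. The activation list had 0.92 with 1 of 15 called. Gata3 had a log2 difference of -0.19 (SE 0.23, edgeR adjusted p = 0.769), Pparg 0.15 (SE 0.27, edgeR adjusted p = 0.863) and Cyp11a1 -0.06 (SE 0.41, edgeR adjusted p = 0.978). These standard errors leave room for sizeable differences in either direction. Ccl1 had -0.40 (SE 0.52, edgeR adjusted p = 0.789), -0.68 with the replicate block (adjusted p = 0.0397) and 0.36 without IL1α-/- 2, so its direction rests on that tumour. Batf, which cooperates with IRF4 at cytokine genes, was at 75.4, 75.1, 197 and 198 CPM (1.44), and Irf4 at 49.1, 48.4, 131 and 122 (1.41). Both separated the groups, but without WT 2 their edgeR adjusted p was 0.0604 and 0.104, and without IL1α-/- 2 0.0648 and 0.116.

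Areg was the secreted product of the type 2 list that differed by host. It stood at 189.7 and 236 CPM in WT members and 1118 and 803 in IL1α-/- members, a log2 difference of 2.20 (SE 0.26, edgeR adjusted p = 0.0159). Every alternative tried kept that call. The share of members with an Areg UMI was 14.9%, 9.90%, 17.4% and 17.4%, and in IL1α-/- 1 a single cell held 45 of the 119 UMIs. Foxp3 T cells held an Areg UMI in 14.8%, 17.8%, 8.33% and 30.6% of cells, and the host effect there was not tested. In other gated T cells Areg was at 15.5, 31.4, 12.6 and 15.9, with the 2 hosts overlapping. Members and these other gated T cells were the 2 populations compared for host effect. The difference between the 2 populations in host effect was 2.79 on the log2 scale (edgeR adjusted p = 0.0138), and its adjusted p was 0.0846 without IL1α-/- 1 and 0.0985 without IL1α-/- 2.

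Several other genes were higher in IL1α-/- members in each alternative tried. Nlrp3, an inflammasome sensor, was at 8.00, 16.5, 329 and 101 CPM (log2 difference 3.88, SE 0.58, edgeR adjusted p = 0.0232). Il21r, the IL-21 receptor, was at 64.0, 69, 309.9 and 252 (2.09), and Irs2, an insulin and IL-4 signalling adaptor, at 35.4, 69, 319 and 266 (2.49). Both IL1α-/- values exceeded both WT values in these 3 genes. Dusp16, a phosphatase of the JNK pathway, was at 20.6, 24.7, 159.7 and 101 (2.44), and Dgat1, the last enzyme of triglyceride synthesis, at 151, 126, 751 and 473 (2.16). Vps37b was at 312, 173, 967 and 1140.5 (2.19). Mt1, a metal-binding metallothionein, was at 58.3, 64.8, 469.6 and 677 (3.29), but 1 cell held 39 of its 50 UMIs in IL1α-/- 1 and 1 cell 154 of 349 in IL1α-/- 2. Cdk5rap1 was at 4.57, 3.09, 56.3 and 46.6 (3.68) and Eif3j1 at 18.3, 14.4, 178 and 122 (3.15). Both lie on chromosome 2, as does Il1a, at 25 and 7.3 Mb from it, and Eif3j1 shares sequence with a near-identical copy, so its count is uncertain. Of the 59 called genes 3 (5.1%) lay on chromosome 2, against 7.61% of those tested.

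The same direction held in other gated T cells for several of these genes. Dgat1 was at 43.3, 31.9, 162 and 168 CPM there, Vps37b at 628, 329.7, 1303 and 1266, Cdk5rap1 at 3.75, 2.25, 37.9 and 43.3, and Eif3j1 at 22.5, 19.8, 141 and 129. For these 4 the host effect in members minus that in other gated T cells was -0.03, 0.74, -0.05 and 0.49 on the log2 scale (edgeR adjusted p = 1, 0.481, 1 and 0.923). Nlrp3 was at 1.61, 1.35, 2.52 and 7.93 there, far below its member level, and the difference of host effects, 1.79 with an SE of 1.22, did not pass (edgeR adjusted p = 0.923). Over all genes that test called 10 of 8454 (0.118%), 7 with a larger host effect in members (0.0828%) and 3 with a smaller one (0.0355%), 6 without IL1α-/- 1 and 3 without IL1α-/- 2.

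In the glycolysis and hypoxia list 3 of 13 genes were higher in IL1α-/- members, Hk2, Hilpda and Bnip3, and none lower, with a median log2 difference of 1.00 over the list and -0.02 over all genes. Hk2 was at 73.1, 98.8, 376 and 227 CPM (1.77), kept in each leave-one-out fit. Hilpda was at 547, 469, 1024 and 1280.1 (1.24) and Bnip3, a mitophagy receptor, at 10.3, 17.5, 56.3 and 87.3 (2.53). Without IL1α-/- 2 neither passed, with edgeR adjusted p of 0.107 and 0.272, and without WT 2 Hilpda had 0.186. The dissociation and heat shock genes, which tissue digestion can induce, summed to 7408, 6017, 8659 and 9161 CPM in members, with 1 of 12, Fosb, higher in the IL1α-/- tumours (177, 217, 751 and 696, log2 difference 1.91) and none lower. Their part in the other differences was not tested.

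The 5 genes lower in IL1α-/- members were Bex1, Gclc, Hlf, Ramp1 and Ltb. Bex1 was at 123, 85.4, 18.8 and 3.88 CPM (log2 difference -3.86), and was detected in 13.7%, 11.9%, 2.90% and 1.16% of members. Gclc, the rate-limiting enzyme of glutathione synthesis, was at 289, 306, 122 and 81.5 (-1.60), and Hlf, a transcription factor, at 320.0, 397, 150.3 and 101 (-1.56). Ramp1, a subunit of the CGRP receptor, was at 1134, 1101, 488 and 337 (-1.43), and Ltb, which encodes lymphotoxin β, at 1431, 1413, 423 and 601 (-1.39). In all 5 both IL1α-/- values lay below both WT values. Among cells with at least 1000 UMIs Gclc, Ramp1 and Ltb lost their calls, and with Scrublet doublets removed Hlf and Ramp1 did. Without IL1α-/- 2 the edgeR adjusted p was 0.0689 for Bex1, 0.12 for Gclc, 0.126 for Hlf and 0.0689 for Ramp1. Without WT 2 it was 0.0519 for Gclc, 0.0702 for Hlf, 0.0644 for Ramp1 and 0.0693 for Ltb, and without IL1α-/- 1 it was 0.0501 for Ltb. Ramp1 and Ltb were also lower in value in other gated T cells of the IL1α-/- tumours (211, 157, 44.2 and 66.5 for Ramp1, 985, 966, 457 and 662 for Ltb), whereas Gclc was not (35.9, 31.4, 55.5 and 40.3).

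**Figure D5:**
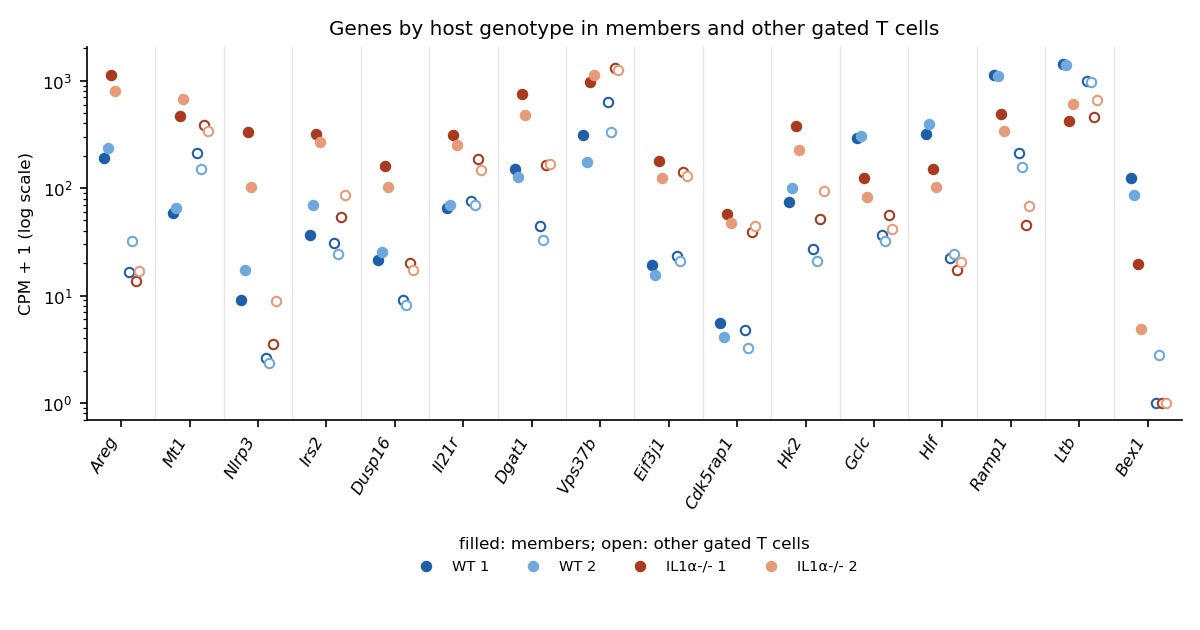
CPM plus 1 on a log axis for 16 genes in members (filled points) and other gated T cells (open points), 1 point per tumour, coloured by host. Areg differs by host in members (189.7 and 236 against 1118 and 803). In the other gated T cells its hosts overlap (15.5 and 31.4 against 12.6 and 15.9), whereas Dgat1, Eif3j1 and Cdk5rap1 shift in both populations. Foxp3 T cells are not drawn.

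The type 2 genes were also summed over all 3054 gated T cells, where the choice of members plays no part. Here 53 of 10111 genes (0.524%) were called, 27 higher in the IL1α-/- tumours (0.267%) and 26 lower (0.257%), 468 with the replicate block, 570 without WT 1 and 200 without IL1α-/- 1. None of Il4, Il5, Il13, Il1rl1, Ccl1 and Gata3 passed. Il13 stood at 243, 325, 147 and 162 CPM, a log2 difference of -0.86 (SE 0.21, edgeR adjusted p = 0.108, 0.0281 with the replicate block and 0.0192 without WT 1). Ccl1 stood at 279.9, 416, 148 and 73.8 (-1.69, SE 0.34, edgeR adjusted p = 0.0739, 0.0278 with the replicate block, 0.00582 without WT 1 and 0.00839 without IL1α-/- 1). In both genes the IL1α-/- values lay below the WT values, as in 52.2% of all tested genes one group lay wholly above or below the other. Gata3 stood at 300.3, 258, 172 and 178 (-0.65, edgeR adjusted p = 0.121), also without overlap, and passed with no count filter (adjusted p = 0.0326) and without other-marker cells (adjusted p = 0.0453). The latter are cells with 3 or more UMIs of phagocyte, epithelial or fibroblast markers. Il4 stood at 58.3, 117, 35.6 and 69.6 (-0.65, edgeR adjusted p = 0.428), Il5 at 21.5, 43.8, 47.8 and 26.0 (0.10, edgeR adjusted p = 0.931) and Il1rl1 at 311, 250.5, 232 and 377 (0.16, edgeR adjusted p = 0.789), and in these 3 the hosts overlapped. Of 5 tested genes of the tumour epithelium, which are not T cell genes, 1 (Epcam) was lower in the same comparison and all 5 had lower values in the IL1α-/- tumours. That list summed to 279.9, 936, 7.57 and 6.10 CPM in other gated T cells and 76.6, 21.6, 0 and 7.76 in members. No other list had a gene called lower. The named lower genes with the largest folds, Fxyd3, Clu, Csn3 and Lcn2, lie outside the lists (log2 differences -11.07, -10.45, -9.58 and -9.54). Without other-marker cells Epcam, Lcn2 and Wfdc18 lost their calls. The part of RNA from other cells in the levels above was not tested.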

How the data were processed

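Single-cell 3′ libraries (10x v3.1) of 4 tumours were used as deposited by the authors, as raw counts of UMIs per gene and barcode for every possible barcode. Cell Ranger 3.1.0 and the mouse build mm10 are given in the submitters' processing notes, and the aligner's settings are not given in the sources used here. The reference also held human genes, whose rows were left out. A tumour is the replicate, cells are not, and nothing states how many mice a tumour stands for beyond its own label. Host p-values set the host difference against the spread between tumours of a group. Population p-values, with the tumour as a block, set differences within tumours against their spread over the 4 tumours.

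Counts were summed per tumour and population and tested with edgeR 4.0.16 (quasi-likelihood F test, TMM scaling, its filter on low counts, Benjamini-Hochberg adjustment, threshold 0.05) in R 4.3.3, after a test on simulated data. At simulated log2 changes of 1 and 2 that test recovered 6 of 94 and 56 of 95 genes for hosts within members, 54 of 94 and 93 of 97 for members against other gated T cells, and 1 of 106 and 29 of 88 for the difference of host effects. The simulated counts used the same mean profile and a fixed dispersion for every tumour and population. They held no RNA from other cells and no genes concentrated in few cells. Recovery in the real data can therefore differ from these counts. A fold change is TMM-scaled, while a printed level is CPM over the population's mouse UMIs. Rule genes were left out of every test, except that Il4, Il5, Il13 and Il1rl1 were kept in the test over all gated T cells. Foxp3 T cells are Cd3 cells with a Foxp3 UMI that pass the other gates. Shares were compared with exact permutation tests, and intervals are Clopper-Pearson at 95%.

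Alternatives were DESeq2 1.42.0, another size factor, no count filter, each tumour left out, a replicate block, other cell cut-offs, Scrublet (scanpy 1.11.5), thinning and depth matching. The replicate numbers were taken as the collection pairs, since the submitters describe pairs taken on separate days, although no label says that a number marks a day. After removing group means, same-numbered tumours correlated at 0.246 across 6685 genes, a single value that both pairs share by construction with 2 tumours a group. Members and gene lists were chosen with earlier results of these data known. Genes were named by rule: the 15 higher and 15 lower with the largest fold among those called, same in direction in every tumour or not overlapping, at 50 CPM or more (10 between hosts) in the higher group, plus Ccl1, Gata3, Il1a and the listed genes. Ramp1 and Gclc in other gated T cells and Ltb4r1, Hdc and Col1a1 were named after their values were seen where they fall outside it.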

Additional observations from a re-analysis of the deposited data

Results flagged for a closer look

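The host effect (IL1α-/- against WT) differed between members and other gated T cells in 10 genes by edgeR's test of that difference, 9 of which have a gene name that the naming rule takes. Each value is the log2 host effect in members minus that in other gated T cells. Areg, the ligand amphiregulin, had 2.79, with members at 189.7, 236, 1118 and 803 CPM and the others at 15.5, 31.4, 12.6 and 15.9. Mt1, a metallothionein, had 2.26, with members at 58.3, 64.8, 469.6 and 677 and the others at 211, 149, 389.9 and 339.9. Phlda1 had 1.66, with members at 191, 220.2, 657 and 704 and the others at 106, 109.6, 106 and 126. In Mt1 a single cell held 39 of the 50 member UMIs of IL1α-/- 1 and another 154 of the 349 of IL1α-/- 2. Without cells holding 3 or more UMIs of phagocyte, epithelial or fibroblast markers, Mt1 had 0.046 (edgeR adjusted p = 0.998) and Phlda1 0.70 (edgeR adjusted p = 0.437), so neither kept its call, while Areg had 2.60 (edgeR adjusted p = 1.09e-06).

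Gclc had -2.04, with members at 289, 306, 122 and 81.5 and the others at 35.9, 31.4, 55.5 and 40.3. Icos had -1.33, with members at 557, 462, 798 and 805 and the others at 179, 159, 702 and 683, so that the population gap seen in WT tumours was small in the IL1α-/- tumours.

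The other 4 genes rest on few cells. Saa3 had 13.9, a fitted value against tumours at 0, with all 18 member UMIs in 1 cell of IL1α-/- 2. Slpi had 6.59, with all 38 UMIs of IL1α-/- 1 in 1 cell and 19 UMIs of IL1α-/- 2 in 3 cells. Cxcl2 had 2.98, with 47 of 50 UMIs of IL1α-/- 2 in 1 cell. Mmp3 had 5.27, with 23 UMIs in 4 cells of IL1α-/- 2, 14 of them in 1 cell, and -1.32 without that tumour. None of the 9 calls held in every alternative tried (0 of 9). Without IL1α-/- 1, Areg, Phlda1, Gclc, Icos, Cxcl2 and Slpi lost theirs, and without IL1α-/- 2 all 9 did, at edgeR adjusted p from 0.0985 (Areg) to 1 (Saa3).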

How the results depend on the processing

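Every share difference kept its direction in each alternative. Without single tumours it ranged from -18.4 to -7.20 points among gated T cells and from -3.47 to -0.463 among all cells, and the replicate block left the mean at -12.8. Of 1829 alternative values of named genes 1673 kept direction and side of the threshold, 130 lost the call, 18 gained it and 8 reversed, and 88 of 152 called results held throughout. Counts of calls moved more. For hosts within members they were 297 with no count filter, 399 with the replicate block, 97 with 2 type 2 UMIs, 128 for cytokine genes alone, 162 without cells holding other-cell markers (chosen after seeing the data) and 47 to 204 without single tumours. For hosts in gated T cells they were 222 by DESeq2, 1052 with no filter, 468 with the block, 361 without other-marker cells and 50 to 570 without single tumours. For members against other gated T cells they were 1479 with no filter, 323 in Cd4 cells and 524 to 987 without single tumours, and against Foxp3 T cells 294 to 610. For the difference of host effects they were 90 with no filter, 185 with 2 UMIs, 194 for cytokine genes alone, 38 without other-marker cells and 3 to 123 without single tumours. For cytokine against receptor-only members they were 47 to 285. The causes were not tested. Reversals were Ccl1 within members without IL1α-/- 2 (0.36, range -1.71 to 0.36 over single tumours left out), Il5 in gated T cells without WT 1 (-0.32, range -0.32 to 0.73), without IL1α-/- 1 (-0.28) and without other-marker cells (-0.059), Il1rl1 there without IL1α-/- 2 (-0.29, range -0.29 to 0.49), and, for the difference of host effects, Mmp3 without IL1α-/- 2 (-1.32, range -1.32 to 5.66) and Gata3 with no filter (-0.0020) and without IL1α-/- 2 (-0.0021, range -0.0021 to 0.058). Few genes were recovered at a simulated log2 change of 1 with 2 tumours a group, so small effects can be missed, and IL1α-/- 1 had the fewest cells and UMIs.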

Other observations

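The 13 listed genes of the IL-1 family and of alarmin sensing, Il1rl1 apart, summed to 1207, 948, 704 and 881 CPM in members and 806, 578, 829 and 905 in other gated T cells, and 2 of them had no UMI in any member. The list includes Il7r, which is also in the naive and central memory list. Genes with values below hold the smaller part of the member sums, so the sums are not a level of the IL-1 family alone. Of 6 tested genes of that list, Il1r2 and Crlf2 were higher in members than in other gated T cells and Il18r1 and Il1b were lower. Il1r2, the decoy receptor for IL-1, was at 32.0, 46.3, 56.3 and 36.9 CPM in members and 10.2, 8.08, 6.31 and 7.93 in the others, without overlap (log2 difference 2.24, SE 0.28, edgeR adjusted p = 3.26e-05). Crlf2, a subunit of the receptor for the alarmin TSLP, was at 86.9, 102, 75.1 and 93.1 against 53.5, 49.0, 53.0 and 52.5 (0.84). Il18r1 was at 75.4, 52.5, 150.3 and 109 against 173, 169.8, 288 and 259 (-1.28). The signalling receptor Il1r1 had 9, 2, 0 and 7 UMIs over all members, and its partner chain Il1rap, which ST2 also uses, was at 19.4, 5.15, 18.8 and 11.6 against 19.3, 17.5, 15.1 and 11.6 (log2 difference -0.39, edgeR adjusted p = 0.616).

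The gene of a neuropeptide and that of 1 subunit of its receptor were higher in members than in other gated T cells. Calca encodes CGRP, and Ramp1, singled out after its values were seen, encodes a subunit of the CGRP receptor. Ramp1 was at 1134, 1101, 488 and 337 CPM in members and 211, 157, 44.2 and 66.5 in the others (log2 difference 2.70, SE 0.21, edgeR adjusted p = 1.59e-07), and was detected in 75.0%, 78.2%, 34.8% and 41.3% of members. Calca was at 119, 98.8, 263 and 142 in members, with a log2 host difference of 0.82 that did not pass (edgeR adjusted p = 0.28). Ramp3, of the same gene family as Ramp1, was higher in IL1α-/- members (log2 difference 2.46, edgeR adjusted p = 0.0357). It lost that call without IL1α-/- 2, among cells with at least 1000 UMIs and with Scrublet doublets removed. Over the alternatives its log2 difference ranged from 1.53 to 3.01. Csf2, the GM-CSF gene, was at 36.6, 5.15, 272 and 42.7 in members, but 1 cell held 24 of the 29 UMIs of IL1α-/- 1. Il17a and Cxcr5, markers of type 17 and follicular helper cells, had no UMI in any member.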
